A study of Mus musculus with 12 samples.

Results

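The proteasome genes of mouse brown fat, together with Nfe2l1, Pomp and the genes that act with them, were followed across 2 genotypes and 2 temperatures. Members were all genes named Psma, Psmb, Psmc, Psmd, Psme or Psmf plus a number, with Nfe2l1, Ddi2 and Pomp added, and each was read by its probe set of highest mean over all arrays. Of 47 genes so listed, 45 were measured by a probe set carrying a single gene symbol, out of 22180 genes measured in this way. Psma4 had only probe sets that carry several symbols and Ddi2 had no probe set with a single symbol, so neither was analysed here. The measured genes were 18 subunits of the 20S core, 20 genes of the 19S cap and its assembly, 4 activators, Psmf1, Nfe2l1 and Pomp.

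The arrays covered 4 groups of 3 mice each. The KO 4 °C group held adipocyte-specific Sel1L KO mice fasted for 5 h at 4 °C, and the WT 4 °C group held wildtype littermates (Sel1L f/f) fasted for the same time in the cold. The KO RT and WT RT groups held Sel1L KO and wildtype mice fasted for 5 h at room temperature. All mice were on the C57BL/6J background and carried the floxed Sel1L allele, and the KO mice carried in addition a Cre transgene driven by the Adiponectin promoter, which is active in adipocytes and leaves the other cells of the tissue with their Sel1L. The design text speaks of isolated brown adipocytes while the sample labels and the extraction protocol speak of brown adipose tissue. In tissue RNA, fewer cells of a type and less RNA per cell cannot be told apart.

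The proteasome degrades proteins tagged with ubiquitin. Its 20S core is a barrel of alpha and beta rings, with the catalytic sites in the beta rings, and its 19S cap recognises, unfolds and feeds in the substrate by a base of ATPases and a lid that removes ubiquitin. NFE2L1 is a transcription factor that is anchored in the endoplasmic reticulum and normally removed by ER-associated degradation, the pathway in which SEL1L is the partner of the ubiquitin ligase HRD1 (gene Syvn1). When the proteasome falls short, NFE2L1 is drawn out of the membrane, stripped of its sugars by NGLY1, cleaved by DDI2, and with small MAF proteins it switches on proteasome genes. In mouse brown fat, cold exposure is known to raise proteasome activity through NFE2L1.

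Each value is a log2 expression value normalised by RMA, so that a difference of 1 is 2-fold. Values of different probe sets are not comparable as levels. Array medians lay between 2.03 and 2.09, and replicates of a group correlated at 0.985 to 0.993 over all probe sets with a single symbol. Sel1l, the deleted gene, read 6.90, 6.73 and 6.54 in KO 4 °C arrays, 6.99, 6.69 and 7.04 in WT 4 °C arrays, 6.18, 6.09 and 5.92 in KO RT arrays, and 7.37, 6.96 and 7.23 in WT RT arrays. The KO arrays stood below all wildtype arrays at room temperature (−1.12 ± 0.14 SE, adjusted p = 0.00114) and overlapped them at 4 °C (−0.19, adjusted p = 0.605), so at 4 °C Sel1l does not check the genotype labels, which are used as given. At 4 °C Syvn1 differed between the labelled genotypes, with 8.39, 9.17 and 8.79 in KO 4 °C arrays and 5.96, 5.84 and 6.04 in WT 4 °C arrays. Syvn1 is not the deleted gene and is itself a result of this comparison, so it is no independent check of the labels. Brown adipocyte markers averaged 9.06 to 9.43 in every array, all 13 of them measured. The mean of 18 skeletal muscle markers varied widely, from 2.54 to 6.36 in KO 4 °C arrays, 4.67 to 7.62 in WT 4 °C arrays, 2.82 to 6.04 in KO RT arrays and 6.08 to 6.98 in WT RT arrays, with none of the 18 below the median of every array. At room temperature all KO arrays thus lay below all wildtype arrays, so muscle signal and genotype ran together there. All 18 markers had a negative difference there, with a median of −2.29, none called by limma and 11 at an unadjusted p under 0.05. With the muscle mean as a covariate in the fit, 3, 4, 10, 0 and 0 proteasome genes were called in the comparisons of KO with WT at 4 °C, of 4 °C with room temperature in KO and in WT, of KO with WT at room temperature, and for the difference of the cold responses. The calls so lost were Psmb7 between genotypes at 4 °C (adjusted p = 0.0712), and Psmb8 and Psmd5 for the cold in KO fat (adjusted p = 0.0634 and 0.0592). Among the pathway genes described below, limma lost Nfe2l3 and Ubqln2 between genotypes at 4 °C (adjusted p = 0.0871 and 0.0501). It also lost Tapbp for the cold in WT fat and Syvn1 for the difference of the cold responses (adjusted p = 0.0637 and 0.0634). Ifit1 and Isg15, uncalled without the covariate, passed between genotypes at room temperature (adjusted p = 0.0485 and 0.0409).

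The labels of replicate 3 of the WT RT group disagree. Its source name gives 4 °C, whereas its title and its exposure field give room temperature, and it was kept as room temperature. Of the 100 genes with the largest difference between the 3 WT 4 °C arrays and the other WT RT arrays, it lay nearer to room temperature in 93. Calls that depend on it are given with and without it, while counts of positive and negative differences were not repeated without it.

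**Figure D1:**
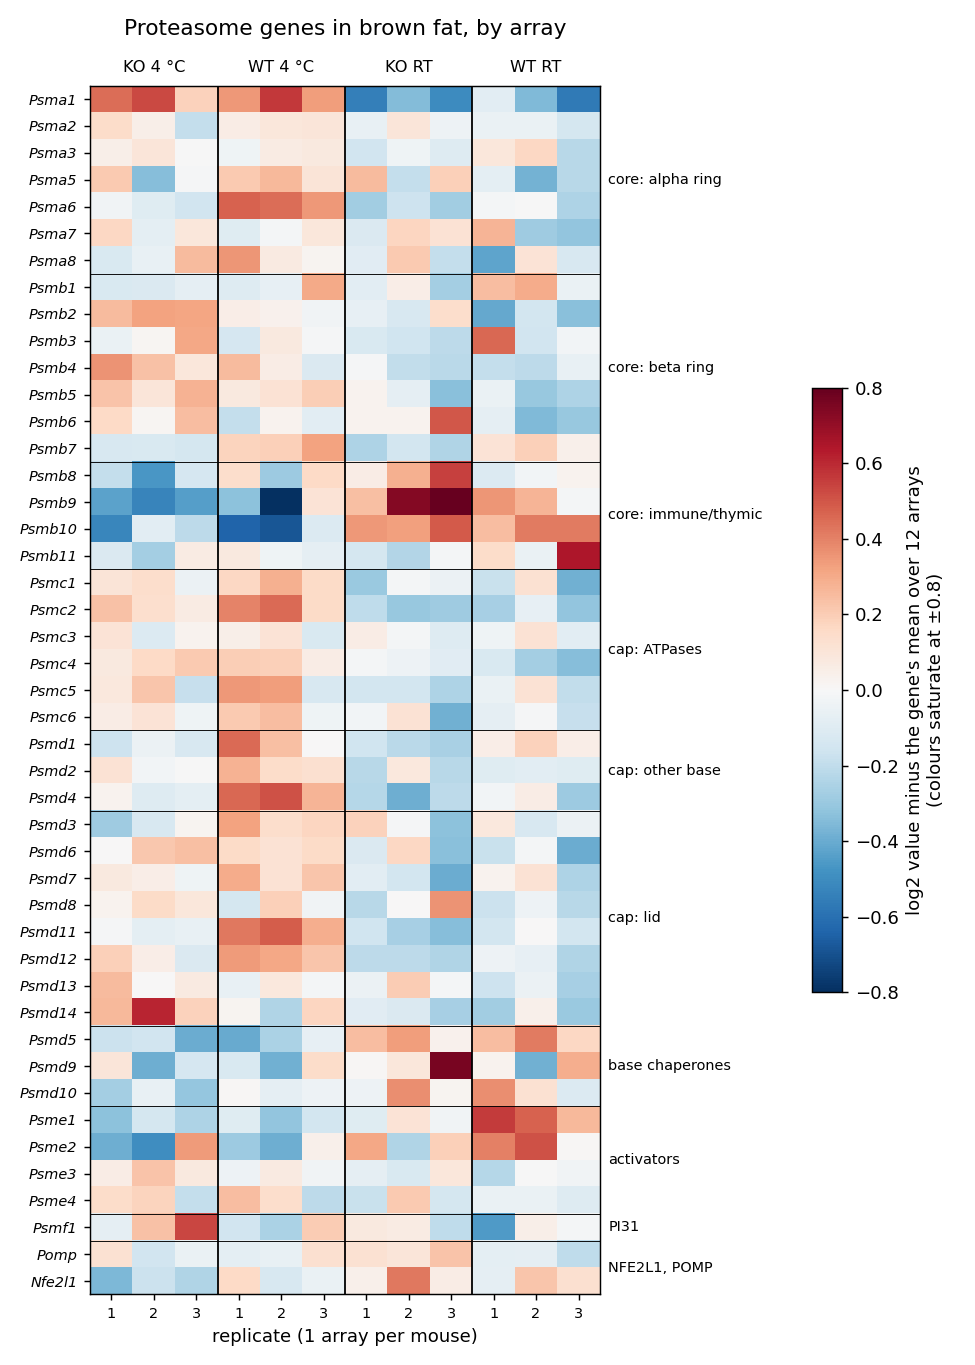
Log2 value of each of the 45 genes minus its own mean over the 12 arrays, in columns by group and replicate and in rows by role; colours saturate at ±0.8. The WT 4 °C columns are warm for most core and cap rows, while those of Psmb10 are cool and those of Psmb8 and Psmb9 are mixed.

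The first question was what cold did to the proteasome genes of wildtype fat. At 4 °C, 7 constitutive subunits rose and 3 other genes fell against room temperature. The risen ones were Psma1 and Psma6 of the alpha ring, the ATPases Psmc2 and Psmc4, the ubiquitin receptor Psmd4, and the lid subunits Psmd11 and Psmd12. The fallen ones were the immune subunit Psmb10, the activator Psme1 and the base chaperone Psmd5. Among all 23521 probe sets, 4.85% rose and 6.23% fell in this comparison, and among the 11760 above the median mean 9.21% rose and 11.9% fell.

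Psma1, an alpha ring subunit, read 8.15, 8.37 and 8.14 in WT 4 °C arrays and 7.72, 7.45 and 7.24 in WT RT arrays. Every cold array stood above every room temperature array, and the difference was 0.75 ± 0.14 (SE, 1.69-fold, adjusted p = 0.00424). Psma6, of the same ring, read 8.58, 8.55 and 8.45 in WT 4 °C arrays and 8.09, 8.10 and 7.86 in WT RT arrays. The groups again did not overlap, with a difference of 0.51 ± 0.10 (adjusted p = 0.00675). In the cap, Psmd11, a lid subunit that holds the complex together, read 8.77, 8.83 and 8.64 in WT 4 °C arrays and 8.20, 8.35 and 8.20 in WT RT arrays. Its lowest cold array was above its highest room temperature array, and it rose by 0.50 ± 0.10 (adjusted p = 0.00618). Psmc2, a motor subunit, read 7.93, 7.99 and 7.69 in WT 4 °C arrays and 7.27, 7.47 and 7.22 in WT RT arrays, and rose by 0.55 ± 0.11 (adjusted p = 0.00724). A second, dimmer probe set of Psmc2 differed by 0.53 (adjusted p = 0.0537).

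Smaller rises were called for Psmd4 (0.49 ± 0.12, adjusted p = 0.0179), Psmd12 (0.41 ± 0.11, adjusted p = 0.0259) and Psmc4 (0.40 ± 0.10, adjusted p = 0.0209), and cold and room temperature arrays did not overlap for any of them. These 3 calls were lost without WT RT replicate 3, the array with conflicting labels (adjusted p = 0.0693, 0.0940 and 0.0755), and without WT 4 °C replicates 1 or 2, and those of Psmd12 and Psmc4 also without WT RT replicate 2. Psma1, Psma6, Psmc2 and Psmd11 stayed called whichever array was left out. With WT RT replicate 3 moved to the WT 4 °C group, 0 proteasome genes and 0 of all probe sets were called by limma in this comparison, with 5 proteasome genes at an unadjusted p under 0.05. Its own readings lay below all WT 4 °C arrays for 7 of the 7 risen genes and above them for 3 of the 3 fallen ones. These genes were called with this array counted as room temperature, so their order is not a check of its label.

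Most constitutive subunits had positive differences in the cold, a description across genes that are not independent. Here 31 core and cap subunits are called constitutive, all measured ones except the immune or thymic beta subunits and the base chaperones. This name is only a label. The set takes in the dim Psma5 and Psma8, and no gene of it was shown to be constitutive in this tissue. Over the 31 constitutive core and cap subunits, the mean log2 value was 7.22, 7.23 and 7.16 in WT 4 °C arrays and 6.99, 7.01 and 6.84 in WT RT arrays. The lowest of these means, 6.84, came from the array with conflicting labels, and all WT 4 °C means lay above all WT RT means. Differences were positive for 29 of the 31 subunits, with a median of 0.24. Among the 11220 genes above the median mean 43.5% were positive with a median of −0.06. These counts were not repeated without the array of conflicting labels. All 6 ATPases, all 3 other base subunits and all 8 lid subunits had positive differences, as had all 7 measured alpha ring genes, among them the dim Psma5 and Psma8, whose values stayed below every array median. The beta ring was less uniform, with 5 of 7 positive, a range of −0.11 to 0.33, 0 called by limma and 2 at an unadjusted p under 0.05. Psmb5, the chymotrypsin-like site, differed by 0.33 ± 0.12 (adjusted p = 0.0975), Psmb6, the caspase-like site, by 0.16 ± 0.14 (adjusted p = 0.593), and Psmb7, the trypsin-like site, by 0.12.

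**Figure D2:**
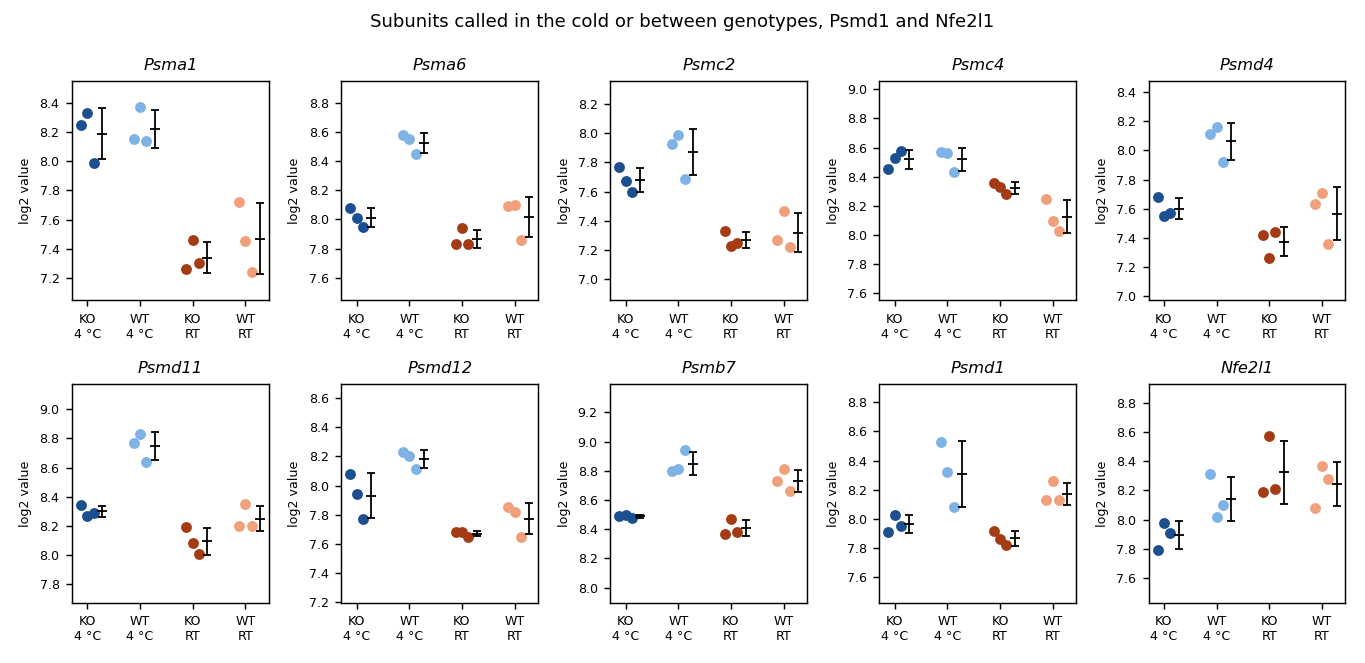
Log2 value per array (points) with the mean and SD (bars) of 10 genes in KO 4 °C, WT 4 °C, KO RT and WT RT fat. For Psma6, Psmd4 and Psmd11 the WT 4 °C points stand above the points of every other group.

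In Sel1L KO fat the same comparison of 4 °C with room temperature gave 2 constitutive subunits that rose, Psma1 and Psmc2, and 4 genes that fell, the immune subunits Psmb8, Psmb9 and Psmb10 and the chaperone Psmd5. Over all probe sets 4.32% rose and 4.7% fell, and above the median mean 8.27% rose and 8.9% fell. Psma1 read 8.25, 8.33 and 7.99 in KO 4 °C arrays and 7.26, 7.46 and 7.30 in KO RT arrays, with no overlap and a rise of 0.85 ± 0.14 (1.80-fold, adjusted p = 0.00248). Psmc2 read 7.77, 7.67 and 7.60 in KO 4 °C arrays and 7.33, 7.23 and 7.25 in KO RT arrays, a rise of 0.41 ± 0.11 (adjusted p = 0.0388). That call was lost without any single KO array or without WT RT replicate 1, with adjusted p up to 0.138.

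The mean of the 31 constitutive subunits was 7.14, 7.11 and 7.10 in KO 4 °C arrays and 6.94, 6.98 and 6.90 in KO RT arrays. Of their differences 27 were positive, with a median of 0.15, against 44% positive and a median of −0.05 among the genes above the median mean. Psmd14, the deubiquitinase of the lid, had the largest difference of the lid in KO fat, 0.51 ± 0.15 (adjusted p = 0.0514), against 0.16 ± 0.15 in WT fat. It passed in KO fat under 6 of 23 alternatives, with adjusted p of 0.0371 to 0.0496: with probe sets above the median mean only, after a further quantile normalisation, with all probe sets of a gene averaged, and without WT RT replicate 2 or WT 4 °C replicates 2 or 3. Psma6, called in WT fat, had 8.08, 8.01 and 7.95 in KO 4 °C arrays and 7.83, 7.94 and 7.83 in KO RT arrays, a difference of 0.15. Across the 45 genes the cold differences in KO and in WT fat correlated at r = 0.75, and across the 11220 genes above the median mean at r = 0.69; this is a description across genes, which are not independent, and all arrays share 1 normalisation.

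**Figure D3:**
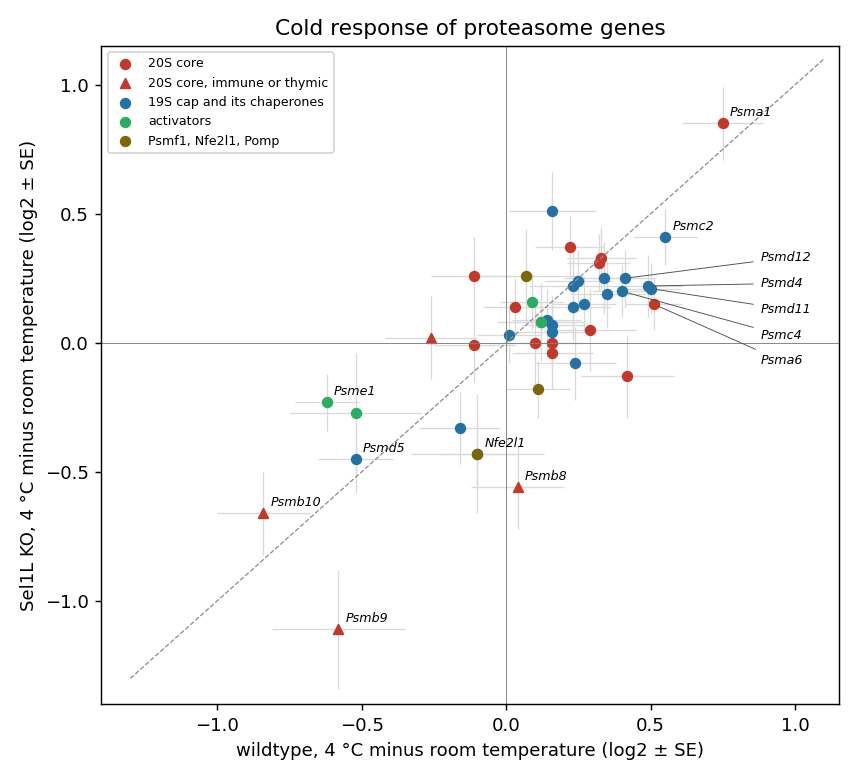
Cold difference (4 °C minus room temperature, log2 ± SE) in Sel1L KO fat on the vertical axis against that in wildtype fat on the horizontal axis, 1 point per gene, coloured by role; the dashed line marks equal differences. Psma1 lies at the upper right with 0.75 in wildtype and 0.85 in KO fat, and Psmd4, Psmd11 and Psma6 lie below the line.

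The direct test of whether the cold response differed between genotypes called 0 of the 45 genes, in limma, against 0.306% of all probe sets. At an unadjusted p under 0.05 there were 4 of them, against 9.77% of all probe sets. The difference of the responses was −0.36 ± 0.14 for Psma6 (adjusted p = 0.423), −0.29 ± 0.14 for Psmd11 (adjusted p = 0.536) and −0.27 for Psmd4 (adjusted p = 0.667). For Psma1 it was 0.10, with a 95% interval of −0.33 to 0.53. Of the 31 constitutive subunits 24 had a negative difference, with a median of −0.10, beside 51.2% positive and a median of 0.01 among the genes above the median mean. This is a description across genes that are not independent. A call in one genotype and none in the other is therefore not shown to be a difference between them for any gene here.

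Within the cold, Sel1L KO fat was set against wildtype fat. Of the 45 genes limma called 4 lower, Psma6, Psmd11, Psmd4 and Psmb7, and 0 higher, with 9 at an unadjusted p under 0.05 against 16.9% of all probe sets. The background was 3.61% of all probe sets higher and 2.19% lower, and 6.97% higher and 4.23% lower above the median mean. By arrays, 11 genes had all 3 KO 4 °C arrays below all 3 WT 4 °C arrays, against 10.7% of all probe sets, and 2 genes had them above, against 11.2%. The WT 4 °C arrays are the same as in the wildtype cold comparison, so the low KO values and the wildtype rise of Psma6, Psmd11 and Psmd4 are not independent readings.

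Psma6 was lowest relative to wildtype, with 8.08, 8.01 and 7.95 in KO 4 °C arrays and 8.58, 8.55 and 8.45 in WT 4 °C arrays. The groups were clear of each other, and Psma6 fell by 0.51 ± 0.10 (1.43-fold lower, adjusted p = 0.00979), a call kept whichever array was left out. Psmd11 read 8.34, 8.27 and 8.29 in KO 4 °C arrays and 8.77, 8.83 and 8.64 in WT 4 °C arrays (−0.45 ± 0.10, adjusted p = 0.0175). Its call was lost without WT 4 °C replicates 1 or 2 or KO 4 °C replicates 2 or 3, with adjusted p up to 0.0687. Psmd4, which binds ubiquitin chains, read 7.68, 7.55 and 7.57 in KO 4 °C arrays and 8.11, 8.16 and 7.92 in WT 4 °C arrays (−0.46 ± 0.12, adjusted p = 0.0398). That call was lost without any of 8 arrays (each KO 4 °C array, KO RT replicates 1 and 3, WT 4 °C replicates 1 and 2, and WT RT replicate 1), with adjusted p up to 0.129. With the WT RT array of conflicting labels moved to the WT 4 °C group, 0 of the 45 genes were called by limma and 7 had an unadjusted p under 0.05, while 4.75% of all probe sets were still called in either direction, against 5.8% with the array kept at room temperature. The mean of the 13 brown adipocyte markers was also lower in KO fat, at 9.17 to 9.24 in KO 4 °C arrays and 9.40 to 9.43 in WT 4 °C arrays, where Ppargc1a (−1.42) and Pparg (−0.78) were the 2 markers called. The markers did not move as one, with 9 negative and 4 positive differences, a median of −0.13 and a highest value of 0.35. The 9 endothelial markers had 0 positive differences at 4 °C, with a median of −0.18 and none called by limma, 3 at an unadjusted p under 0.05, and a mean of 7.17 to 7.41 in KO 4 °C arrays and 7.34 to 7.62 in WT 4 °C arrays. At room temperature, where no proteasome gene was called, their mean was 7.11 to 7.14 in KO RT arrays and 7.15 to 7.69 in WT RT arrays. The part of either marker list in the result was not tested.

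Psmb7, the trypsin-like catalytic subunit, was low in KO fat at both temperatures and was called at 4 °C. It read 8.49, 8.50 and 8.48 in KO 4 °C arrays and 8.80, 8.81 and 8.94 in WT 4 °C arrays (−0.36 ± 0.09, adjusted p = 0.0392), and 8.37, 8.47 and 8.38 in KO RT arrays and 8.73, 8.81 and 8.66 in WT RT arrays (−0.33 ± 0.09, adjusted p = 0.119). All 6 KO arrays thus lay below all 6 wildtype arrays, between 8.37 and 8.50 against 8.66 and 8.94. The call at 4 °C was kept only without WT RT replicates 2 or 3 or KO RT replicate 2 and was lost without each of the other 9 arrays, with adjusted p up to 0.116. Psmd1, a scaffold of the base, shared this order, with 7.82 to 8.03 in KO arrays and 8.08 to 8.53 in wildtype arrays, though neither comparison passed (−0.35 ± 0.12 at 4 °C, adjusted p = 0.121, and 0.0342 without WT 4 °C replicate 3; −0.30 ± 0.12 at room temperature, adjusted p = 0.271). These were the 2 of 45 genes with all KO arrays below all wildtype arrays, against 0.753% of all 22180 genes; Psmd1 was singled out after its values were seen.

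The other catalytic subunits did not pass at 4 °C. Psmb5 differed by 0.07 ± 0.12 (adjusted p = 0.854) and Psmb6 by 0.23 ± 0.14 (adjusted p = 0.488). Within the cap, 15 of 20 genes had a negative difference and the median was −0.14. The 18 core genes had 10 negative differences with a median of −0.05, and the 4 activators stayed between −0.05 and 0.12. Psmd14 had the highest difference of the cap, 0.36 ± 0.15 (adjusted p = 0.218). Over the 31 constitutive subunits, 20 were negative with a median of −0.10, beside 48.2% positive and a median of −0.01 among the genes above the median mean. The second probe set of Psma5, as dim as the first, was lower in KO 4 °C fat (−0.81 ± 0.21, adjusted p = 0.0434), while the probe set used for Psma5 was not called.

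**Figure D4:**
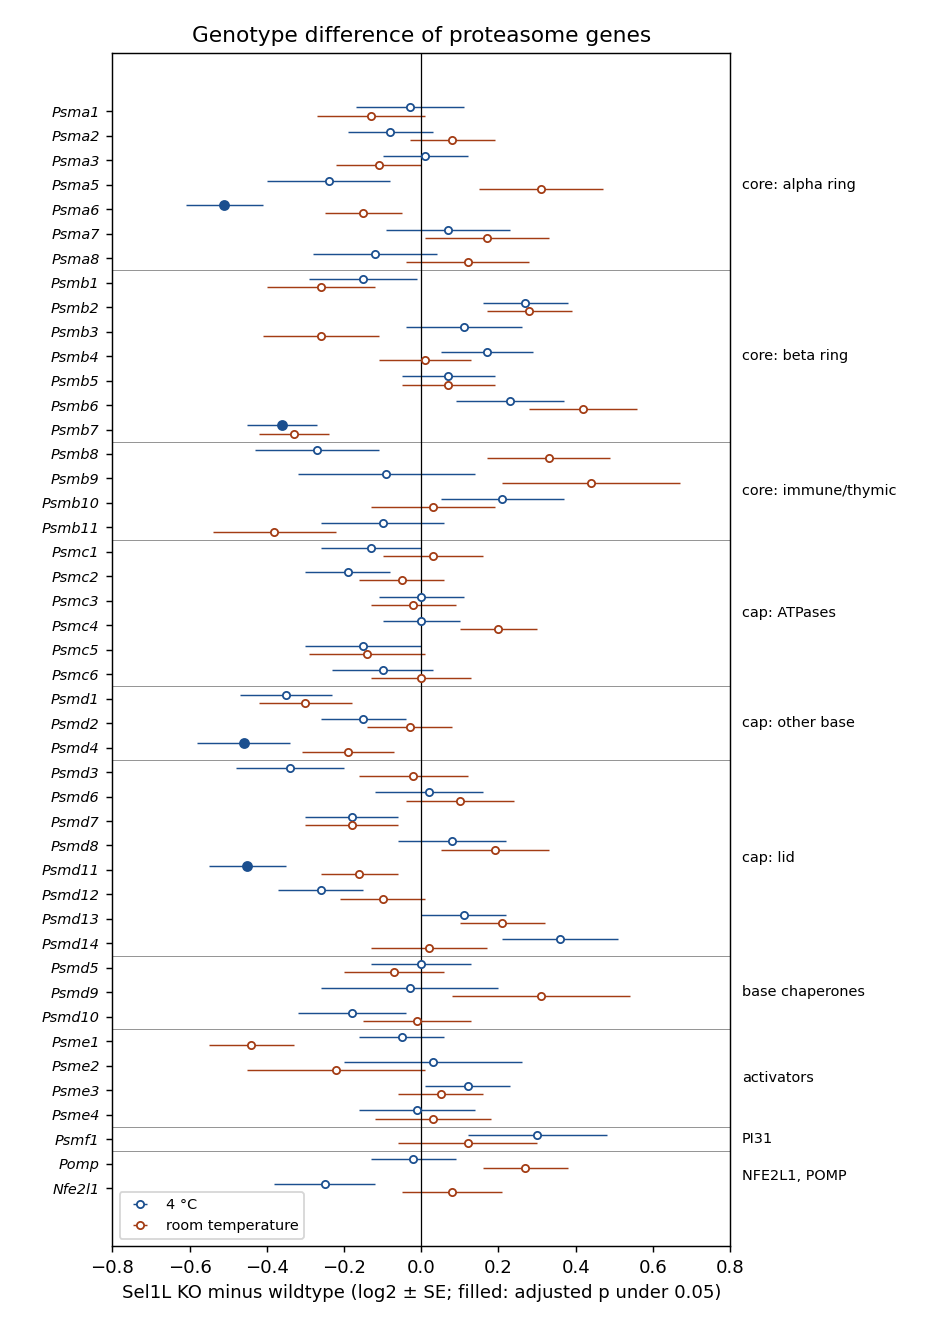
Difference between Sel1L KO and wildtype fat (log2 ± SE) for each gene, at 4 °C in blue and at room temperature in red; filled points have an adjusted p under 0.05. The 4 filled points, Psma6, Psmb7, Psmd4 and Psmd11, are all at 4 °C and all below 0.

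At room temperature the loss of Sel1L left all 45 genes uncalled in limma, where 1.72% of all probe sets were called. An unadjusted p under 0.05 was reached by 7 genes, against 13% of all probe sets. Differences ran from −0.44 for Psme1 to 0.44 for Psmb9, and 23 of 45 were positive. The constitutive subunits were close to balanced, with 14 of 31 positive and a median of −0.02. Psmb6 read 7.77, 7.77 and 8.24 in KO RT arrays and 7.67, 7.39 and 7.44 in WT RT arrays. All KO arrays were above the wildtype arrays, by 0.42 ± 0.14 (adjusted p = 0.194), with replicate 3 apart from the other two. Psmb5 differed by 0.07, with a 95% interval of −0.18 to 0.33. Between the room temperature and the 4 °C comparison, which share no array, the genotype differences correlated at r = 0.36 across the 45 genes and at r = 0.56 across the genes above the median mean, as a description.

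The immune subunits are beta subunits that replace the constitutive catalytic ones in cells exposed to interferon. In the cold they fell where they were called, while the called alpha ring subunits rose. Psmb9 read 3.00, 2.90 and 2.99 in KO 4 °C arrays, 3.10, 2.52 and 3.54 in WT 4 °C arrays, 3.67, 4.16 and 4.37 in KO RT arrays and 3.78, 3.70 and 3.41 in WT RT arrays. The KO RT arrays stood above all KO 4 °C arrays, and Psmb9 fell in the cold in KO fat by 1.11 ± 0.23 (2.15-fold lower, adjusted p = 0.00975). In WT fat cold and room temperature arrays overlapped (−0.58 ± 0.23, adjusted p = 0.146; adjusted p = 0.0268 without WT 4 °C replicate 3).

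Psmb10 read 5.22, 5.66 and 5.53 in KO 4 °C arrays, 5.10, 5.06 and 5.63 in WT 4 °C arrays, 6.09, 6.07 and 6.23 in KO RT arrays and 5.99, 6.16 and 6.16 in WT RT arrays. Every cold array was below every room temperature array in both genotypes. It fell by 0.66 ± 0.16 in KO fat (adjusted p = 0.0205) and by 0.84 ± 0.16 in WT fat (adjusted p = 0.00458). The KO call was lost without KO RT replicate 3 or KO 4 °C replicate 1, with adjusted p up to 0.0925. Psmb8 read 5.08, 4.81 and 5.14 in KO 4 °C arrays, 5.41, 4.98 and 5.43 in WT 4 °C arrays, 5.33, 5.56 and 5.82 in KO RT arrays and 5.16, 5.25 and 5.30 in WT RT arrays. It fell in the cold in KO fat by 0.56 ± 0.16 (adjusted p = 0.0435), while WT fat gave 0.04 ± 0.16 with overlapping arrays. The KO call stood without WT 4 °C replicates 2 or 3 or KO RT replicate 1 and was lost without each of the other 9 arrays, with adjusted p up to 0.172. The difference of the 2 responses was −0.60 ± 0.22 for Psmb8 (adjusted p = 0.371) and −0.53 ± 0.33 for Psmb9 (adjusted p = 0.661).

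Psmb11, the thymic subunit, was dim, between 1.36 and 2.28. In KO RT fat Psmb8 and Psmb9 were 0.33 ± 0.16 and 0.44 ± 0.23 above WT RT fat (adjusted p = 0.398 and 0.461), and Psmb10 was 0.03 above. Markers listed for T, B and NK cells, in which immune subunits are abundant, had a lower mean in the cold in KO fat, as the immune subunits did. In WT fat these markers did not. Their mean over 11 genes, of which 3 stayed below every array median, was 2.15 to 2.25 in KO 4 °C arrays, 2.36 to 2.53 in WT 4 °C arrays, 2.47 to 2.76 in KO RT arrays and 2.30 to 2.36 in WT RT arrays. Their cold differences were negative for 11 of 11 in KO fat, with a median of −0.27, and for 3 of 11 in WT fat, with a median of 0.15, where Psmb10 fell. None of the 11 passed between genotypes, 1 fell in the cold in KO fat and none in WT fat, and their part in the immune subunits was not tested. The brightest of the 11, Ptprc, is not specific to T, B and NK cells. It read 4.40 to 4.49 in KO 4 °C, 4.59 to 5.72 in WT 4 °C, 5.36 to 5.66 in KO RT and 4.12 to 5.23 in WT RT arrays. No other gene of the list read above 3.58 in any array. The mean of 12 macrophage markers overlapped between all groups, at 5.30 to 5.53 in KO 4 °C arrays, 4.93 to 5.75 in WT 4 °C arrays, 5.18 to 5.44 in KO RT arrays and 4.93 to 5.68 in WT RT arrays.

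Psme1, with Psme2 a part of the PA28 ring that opens the core and is tied to antigen processing, read 7.33, 7.52 and 7.41 in KO 4 °C arrays, 7.56, 7.34 and 7.51 in WT 4 °C arrays, 7.56, 7.77 and 7.63 in KO RT arrays and 8.22, 8.13 and 7.92 in WT RT arrays. The WT RT arrays stood alone above all others. Psme1 fell in the cold in WT fat by 0.62 ± 0.11 (1.54-fold lower, adjusted p = 0.00404), kept whichever array was left out, and gave −0.23 ± 0.11 in KO fat (adjusted p = 0.275). At room temperature KO fat differed from WT fat by −0.44 ± 0.11 (adjusted p = 0.086), and the difference of the cold responses was 0.39 ± 0.16 (adjusted p = 0.452). Psme2, its partner, gave −0.27 ± 0.23 in KO fat and −0.52 ± 0.23 in WT fat in the cold (adjusted p = 0.600 and 0.189). Psme3, the nuclear PA28 subunit, gave 0.16 and 0.09, and Psme4, which encodes PA200, gave 0.08 and 0.12, with none called.

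**Figure D5:**
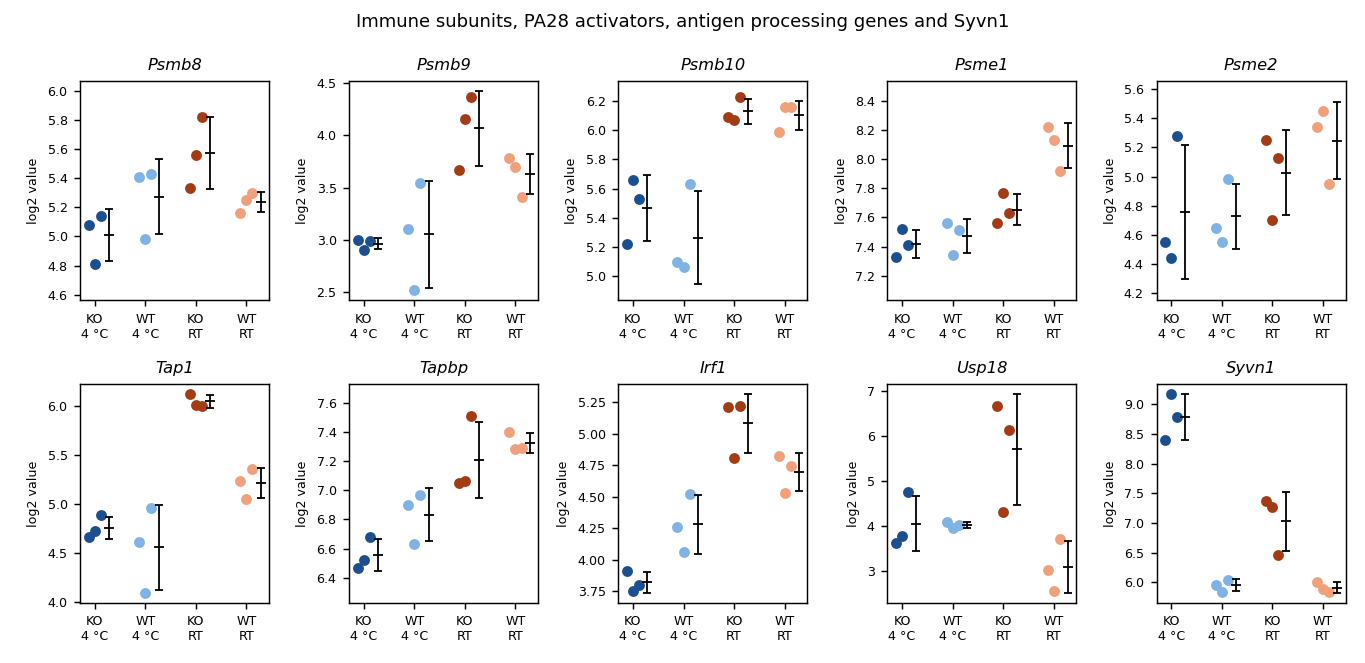
Log2 value per array (points) with the mean and SD (bars) of the immune subunits, Psme1, Psme2, 4 genes of antigen processing and interferon, and Syvn1, in KO 4 °C, WT 4 °C, KO RT and WT RT fat. For Psme1 the WT RT points stand above all others, and for Tap1 the KO RT points do.

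Nfe2l1 read 7.79, 7.98 and 7.91 in KO 4 °C arrays, 8.31, 8.02 and 8.10 in WT 4 °C arrays, 8.19, 8.57 and 8.21 in KO RT arrays and 8.08, 8.37 and 8.28 in WT RT arrays. The KO 4 °C arrays were lower than the arrays of every other group. Against KO RT they gave −0.43 ± 0.13, with an adjusted p of 0.0657, and against WT 4 °C −0.25 ± 0.13 (adjusted p = 0.376). The cold difference in KO fat passed in limma under 3 of 23 alternatives, with probe sets above the median mean only (adjusted p = 0.0491), with a trended and robust prior (adjusted p = 0.0470) and after a further quantile normalisation (adjusted p = 0.0295). It passed in no fit that left out 1 array. With the muscle covariate the adjusted p was 0.0907, and with the array of conflicting labels moved it was 0.104. In WT fat cold gave −0.10 ± 0.13 (adjusted p = 0.758), and at room temperature the genotype difference was 0.08, with a 95% interval of −0.21 to 0.37. These are RNA values, and NFE2L1 protein, its processing and proteasome activity were not measured.

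Pomp, the chaperone that matures the core, read 6.67, 6.40 and 6.50 in KO 4 °C arrays, 6.47, 6.49 and 6.68 in WT 4 °C arrays, 6.67, 6.65 and 6.78 in KO RT arrays and 6.47, 6.48 and 6.35 in WT RT arrays. KO RT arrays exceeded WT RT arrays by 0.27 ± 0.11 without passing (adjusted p = 0.299), and at 4 °C the genotypes overlapped. Psmf1, which encodes the inhibitor PI31, gave 0.30 ± 0.18 between genotypes at 4 °C (adjusted p = 0.467) and 0.12 at room temperature. Of the 3 chaperones that assemble the base, Psmd5 fell in the cold in both genotypes. Psmd5 read 5.94, 5.96 and 5.72 in KO 4 °C arrays, 5.71, 5.86 and 6.05 in WT 4 °C arrays, 6.36, 6.45 and 6.15 in KO RT arrays and 6.36, 6.53 and 6.28 in WT RT arrays.

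Cold arrays of Psmd5 lay below room temperature arrays in both genotypes, and it fell by 0.45 ± 0.13 in KO fat (adjusted p = 0.0480) and by 0.52 ± 0.13 in WT fat (adjusted p = 0.0203). The KO call was lost without any of 8 arrays (each KO 4 °C array, KO RT replicates 1 and 2, WT 4 °C replicate 2, and WT RT replicates 1 and 3), with adjusted p up to 0.167. The WT call was lost without WT 4 °C replicates 1 or 2 or WT RT replicates 1 or 2, with adjusted p up to 0.0864. Psmd9 and Psmd10 had negative cold differences too, of −0.43 and −0.33 in KO fat and −0.10 and −0.16 in WT fat, and did not pass.

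Of 69 names listed for the pathway around these genes, older symbols included, 57 were measured. Among the 13 measured for core assembly and cap partners, Txnl1, a thioredoxin-like protein that binds the cap, rose in the cold by 0.61 ± 0.11 in KO fat (adjusted p = 0.00528) and by 0.77 ± 0.11 in WT fat (adjusted p = 0.00117). Psmg1, a chaperone of the alpha ring, fell in KO fat by 0.55 ± 0.13 (adjusted p = 0.0193). The Psmg1 call was lost without KO RT replicates 1 or 2 or KO 4 °C replicates 1 or 2, with adjusted p up to 0.0858, while both calls of Txnl1 were kept whichever array was left out. None of the 13 was called between genotypes at either temperature by limma, where 7 at 4 °C and 2 at room temperature had an unadjusted p under 0.05, against 16.9% and 13% of all probe sets.

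Among 23 measured genes that process NFE2L1 or resemble it, 6 rose and 2 fell in the cold in KO fat, and 4 rose and 1 fell in WT fat. Over all probe sets, 4.32% rose and 4.7% fell in KO fat, and 4.85% rose and 6.23% fell in WT fat. Above the median mean, 8.27% rose and 8.9% fell in KO fat, and 9.21% rose and 11.9% fell in WT fat. The small MAF genes Maff and Mafk rose in both, and Mafg, the third of that family, was not called (0.17 in KO and 0.55 in WT fat, adjusted p = 0.77 and 0.147). Maff read 5.04, 5.43 and 5.33 in KO 4 °C arrays, 5.31, 5.41 and 4.93 in WT 4 °C arrays, 2.58, 1.43 and 2.61 in KO RT arrays and 2.33, 2.17 and 2.73 in WT RT arrays. It rose 8.32-fold in KO fat (adjusted p = 6.71e-05) and 7.01-fold in WT fat (adjusted p = 0.000117), with genotypes overlapping at either temperature. Mafk, another partner of NFE2L1, rose by 1.17 ± 0.16 in KO fat and by 0.96 ± 0.16 in WT fat (adjusted p = 0.000781 and 0.00236). Ubxn4, which recruits VCP to the endoplasmic reticulum, rose in both (0.53 and 0.74), Rad23b, a ubiquitin shuttle, was called in KO fat (0.54), and Nploc4, a VCP cofactor, was called in WT fat (0.67). Btrc, a ligase adaptor, fell in both (−0.56 and −0.79), and Ogt, which glycosylates NFE2L1 among many proteins, fell in KO fat (−0.63). In WT fat these calls, and in KO fat those of Maff and Mafk, were kept whichever array was left out. In KO fat, those of Ubxn4, Btrc and Ogt were lost without KO 4 °C replicate 2 (adjusted p up to 0.0731 for Ubxn4 and 0.0517 for Ogt), those of Ubxn4 and Btrc without KO RT replicate 2 (adjusted p up to 0.0963 for Btrc), and that of Btrc without KO 4 °C replicates 1 or 3. That of Rad23b was lost without any KO array other than KO RT replicate 1, with adjusted p up to 0.0830.

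Syvn1 rose with the loss of Sel1L at both temperatures, 7.14-fold at 4 °C (adjusted p = 5.98e-06) and 2.18-fold at room temperature (adjusted p = 0.0249), and it was the single gene of the 57 whose cold response differed between genotypes (1.71 ± 0.32, adjusted p = 0.0492). Its rise at 4 °C was kept whichever array was left out. Its rise at room temperature was lost without KO RT replicates 1 or 2 or any WT RT array (adjusted p up to 0.0906), and the difference of its responses was lost without any array but KO 4 °C replicate 1 (adjusted p up to 0.123). In KO fat Syvn1 and Sel1l itself rose in the cold (1.75 and 0.66), with Sel1l not called without KO RT replicate 3 or KO 4 °C replicate 1 (adjusted p up to 0.0603). At 4 °C, Ubqln2, another shuttle (0.79 ± 0.19, adjusted p = 0.0302), and Nfe2l3, a relative of Nfe2l1 (0.58 ± 0.16, adjusted p = 0.0497), were also higher in KO fat. The call of Nfe2l3 was lost without any array but KO 4 °C replicate 3 (adjusted p up to 0.164), and that of Ubqln2 without any KO 4 °C array or WT 4 °C replicates 2 or 3 (adjusted p up to 0.119). Nfe2l2, which encodes NRF2, was not called in any comparison, with differences of −0.11 at 4 °C and 0.12 at room temperature. Of 5 measured ubiquitin, E1 and AN1 genes, Zfand2b rose in the cold in both genotypes (0.64 and 0.78), Zfand5 was called in KO fat (0.64) and Zfand1 fell in WT fat (−0.79). Of these, the call of Zfand2b in KO fat was lost without KO RT replicates 2 or 3 or KO 4 °C replicates 2 or 3 (adjusted p up to 0.129).

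The 16 measured genes of class I antigen processing and interferon leaned the same way as the immune subunits in KO fat, a description across genes that are not independent. In the cold, all 16 had negative differences in KO fat, with a median of −0.67, against 44% positive and a median of −0.05 among the genes above the median mean. Of the 16, 7 fell, against 4.7% of all probe sets and 8.9% of those above the median mean: Tap1, Tap2 and Tapbp of the peptide loading complex, the trimming enzyme Erap1, and Irf1, Irf7 and Stat2 of interferon signalling. In WT fat 9 were positive, against 43.5% of the genes above the median mean, the median was 0.08, and Tap1 and Tapbp fell (−0.65 and −0.49), 2 of 16 against 6.23% of all probe sets. In KO fat the falls of Tap1 (−1.29), Irf1 (−1.25) and Tapbp (−0.65) were kept whichever array was left out. The Tapbp calls were lost when all probe sets of a gene were averaged, in KO fat (adjusted p = 0.0848) and in WT fat (adjusted p = 0.347), and that in KO fat also with the WT RT array of conflicting labels moved to WT 4 °C (adjusted p = 0.052). Those of Tap2, Erap1, Irf7 and Stat2 were each lost without KO 4 °C replicate 2 and at least 2 further arrays, with adjusted p up to 0.104, 0.0671, 0.155 and 0.127. In WT fat the call of Tap1 was lost without WT RT replicates 1 or 3 or WT 4 °C replicates 1 or 2 (adjusted p up to 0.105), and that of Tapbp also without WT RT replicate 2 or KO 4 °C replicates 1 or 2 (adjusted p up to 0.160). Tap1 read 4.66, 4.72 and 4.88 in KO 4 °C arrays, 4.61, 4.09 and 4.96 in WT 4 °C arrays, 6.12, 6.01 and 6.00 in KO RT arrays and 5.23, 5.05 and 5.35 in WT RT arrays. KO RT arrays stood above all others, by 0.83 ± 0.18 over WT RT (adjusted p = 0.0339), a call lost without any of the 6 room temperature arrays or KO 4 °C replicates 1 or 2 (adjusted p up to 0.121).

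Usp18, an interferon-induced protease, was also higher in KO RT fat, with 6.68, 4.33 and 6.13 in KO RT arrays and 3.04, 2.56 and 3.71 in WT RT arrays (2.61 ± 0.50, adjusted p = 0.0184). Replicate 2 of KO RT was well below the other KO RT arrays and still above the WT RT arrays. It was also the lowest KO RT array for Ifit1, Isg15, Stat2, Irf7 and Irf9, and not for Tap1, Tap2 or B2m. The call of Usp18 was lost without KO RT replicates 1 or 3 or WT RT replicates 1 or 2 (adjusted p up to 0.0824). At room temperature 14 of the 16 had positive differences, with a median of 0.86, against 49% positive and a median of −0.01 among the genes above the median mean. Counts over these genes are descriptions, as the genes are not independent. Of the 16, 2 were called, against 1.72% of all probe sets, and 12 had an unadjusted p under 0.05, against 13%. The difference of the cold responses was negative for all 16, with a median of −0.64, against 51.2% positive among the genes above the median mean. None was called by limma, while 8 had an unadjusted p under 0.05, against 9.77% of all probe sets. At 4 °C the genotypes gave 8 positive and 8 negative differences and none was called by limma, with 3 at an unadjusted p under 0.05, against 16.9% of all probe sets.

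NFE2L1 binds antioxidant response elements with a small MAF partner. The core of that element, spelled TGACNNNGC or TGAGNNNGC, was searched on both strands in the 250 bases before each RefSeq transcript start (build GRCm38.p6). Promoters were found for 38 of the 45 genes and 11 of them held a match, 28.9%, against 25.7% of 27025 genes in the table. Of the 13 genes called in any comparison 12 had a promoter there and 4 held a match, Psma6, Psmc2 and Psmd12, which rose in the cold in WT fat, and Psmd5, which fell. They are printed on the strand of the gene, in lower case with the match in capitals; Psma6 has 2 annotated starts and Psmd12 has 2 matches.
Psma6 (chr12:55384022-55384090, plus strand): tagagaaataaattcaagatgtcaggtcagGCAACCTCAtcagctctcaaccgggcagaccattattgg
Psma6 (chr12:55398703-55398771, plus strand): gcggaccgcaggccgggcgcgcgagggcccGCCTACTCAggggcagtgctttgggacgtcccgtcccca
Psmc2 (chr5:21786583-21786651, plus strand): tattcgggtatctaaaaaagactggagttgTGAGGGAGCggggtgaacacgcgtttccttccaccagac
Psmd12 (chr11:107479278-107479319, plus strand): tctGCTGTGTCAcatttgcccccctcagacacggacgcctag
Psmd12 (chr11:107479470-107479527, plus strand): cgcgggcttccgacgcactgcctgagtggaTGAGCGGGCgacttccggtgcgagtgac
Psmd5 (chr2:34871077-34871145, minus strand): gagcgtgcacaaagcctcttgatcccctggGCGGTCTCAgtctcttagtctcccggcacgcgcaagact
The matches began 170 and 92 bases before the start in Psma6, 134 in Psmc2, 247 and 28 in Psmd12 and 153 in Psmd5. One of these 6 matches has the TGAC form, that of Psmd12 at 247 bases, read on the opposite strand as in Psma6 and Psmd5. The windows of Psma1, Psmd4, Psmd11 and Psmc4, which also rose in WT fat, held no match to these letters. A match is a string of letters and not a measured binding site.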

How the data were processed

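Brown adipose tissue RNA of 12 mice, 3 per group, was hybridised to whole-transcript expression arrays, per the labels' protocols. The deposited table holds log2 expression values, and the authors made them with RMA, per the submitters' processing notes; its version and settings are not given in the sources used here. RMA compresses differences of dim probe sets. Scanner intensities were not used here, so detection was not assessed. Of 41345 probe sets, 23521 carried 1 gene symbol in the platform annotation, 1814 several and 16010 none; only the first kind was tested, without a brightness filter, and symbols can be old. Where a gene had several probe sets, that of highest mean was used, which applied to Psma5 and Psmc2. All 12 columns were matched to samples by identifier, and groups came from the titles.

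The 12 arrays entered 1 linear model of the 4 group means, fitted by limma 3.58.1 (R 4.3.3) with its default empirical Bayes step, which left 8 residual and added 4.45 prior degrees of freedom. Benjamini-Hochberg adjustment ran over the 23521 probe sets of each of 5 comparisons, and an adjusted p under 0.05 was a call. The median SE was 0.14, and the number of arrays limits the precision. Sampling of the animals is not described, and the p-values reflect only how these arrays vary. Differences are KO minus wildtype and 4 °C minus room temperature, and ± is the model's SE. The code of the fit was run on simulated data with independent probe sets, which does not bear on the muscle signal or the array of conflicting labels.

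Named genes were every called member, Nfe2l1, Ddi2, Pomp, the catalytic subunits, the activators, Psmf1, and every called gene of the pathway lists; others were named as extremes of a class. The members and lists were chosen with earlier results of these data known, so the list counts are descriptions. Alternatives left out each array, took the replicate number as a block, fitted only the compared arrays, moved or dropped the array with conflicting labels, added a muscle covariate, and changed the probe sets, the prior or the scaling. Promoter sequences are from RefSeq (GRCm38.p6).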

Additional observations from a re-analysis of the deposited data

Results flagged for a closer look

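Syvn1 rose more with the loss of Sel1L in the cold than at room temperature, and the difference of the 2 genotype effects was 1.71 ± 0.32 on the log2 scale (limma adjusted p = 0.0492, kept in 4 of 22 alternatives, with adjusted p up to 0.123 with 1 array left out). Ube3c, a ubiquitin ligase that binds the proteasome, moved in opposite directions in every array. It read 7.34, 7.29 and 7.08 in KO 4 °C arrays, 7.49, 7.66 and 7.43 in WT 4 °C arrays, 7.48, 7.67 and 7.43 in KO RT arrays and 7.21, 7.38 and 7.31 in WT RT arrays, so that all KO arrays were below wildtype at 4 °C and above at room temperature. The difference between the genotype effects was −0.51 ± 0.16 and did not pass the adjustment (limma adjusted p = 0.278). It was chosen after its values were seen, from the 57 measured pathway genes.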

How the results depend on the processing

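Over 23 alternatives (22 for the difference of the cold responses), no called sign changed among 79 gene by comparison results. With 1 array left out, the count of called genes was 1 to 4 for KO against WT at 4 °C (4 with all arrays), 2 to 7 for the cold in KO fat (6), 6 to 11 for the cold in WT fat (10), and 0 for KO against WT at room temperature and for the difference of the cold responses (0 in each). Fitting only the compared arrays gave 1 at 4 °C and 6 for the cold in WT fat. Without the WT RT array of conflicting labels the counts were 4 at 4 °C, 4 and 7 for the cold in KO and in WT fat and 0 elsewhere, and moving it to WT 4 °C gave 0 at 4 °C, 1 for the cold in KO fat and 0 for the cold in WT fat. Testing all probe sets gave 2 at 4 °C and 3 for the cold in KO fat. A further quantile normalisation gave 1 at room temperature, Psme1 (adjusted p = 0.0364). Same-numbered arrays of 2 groups correlated at −0.18 to 0.16 in their deviations, so no pairing of the mice by number was seen. With 3 arrays per group this cannot exclude a pairing. The fit with the replicate number as a block called 2 genes at 4 °C, 5 and 10 for the cold in KO and in WT fat, and 0 for the other 2 comparisons. Of 37 calls of pathway genes, 18 were kept whichever array was left out, as were 9 of the 20 calls of proteasome genes, and no called sign changed. Dim probe sets such as those of Psma5, Psma8 and Psmb11 limit what can be seen of these genes.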
